A study of Mus musculus with 2 samples.

Results

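The mitochondrial ribosome builds the few proteins that mitochondrial DNA still encodes, all of them core subunits of the oxidative phosphorylation complexes. Its RNAs come from mitochondrial DNA, but every one of its proteins is encoded in the nucleus, made in the cytosol and imported. The genes named Mrpl encode proteins of the large subunit, which joins amino acids, and those named Mrps encode proteins of the small subunit, which reads the messenger RNA. Many descend from the ribosome of the bacterial ancestor, and others are found in mitochondria only. The genes described here are all those whose symbol is Mrpl or Mrps followed by a number. The array held 78 of them among 20656 named genes, 49 of the large and 29 of the small subunit. A further 6 genes of such a name, annotated as pseudogenes in the RefSeq table of mouse assembly GRCm38.p6, had no probe.

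Their messenger RNAs were measured in 2 samples of ATDC5, a mouse chondrogenic cell line. One line carries a construct to overexpress HES1, which represses transcription downstream of Notch receptors, and the other a construct for GFP, a fluorescent control protein. They are called the HES1-labelled and the GFP-labelled sample, after their labels. Both lines were stable and made by lentiviral transduction, and the labels do not say how many clones or which promoter they carry. Total RNA was taken after 3 days as a monolayer on 60 mm dishes, and each group had 1 array. There was therefore no replicate and no test, and every difference below is between 2 RNA samples. Signals are in scanner units, with the 75th percentile of each array put at 1057.2. They compare the samples for a probe, never one gene with another. Differences are log2 values, HES1 minus GFP. The scanner's error model put the technical error of a gene's difference at a median of 0.20. It covers the array only and not the spread between cultures.

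The arrays saw a like share of their spots well above background, 56.6% in the HES1-labelled sample and 54.6% in the GFP-labelled sample. The probe for mouse Hes1 was at 10.3 in the HES1-labelled sample and 10.2 in the GFP-labelled sample, which is background on both arrays, so it checked neither label. Of 16 chondrocyte markers on the array, 11 were seen in each sample, and 10 of these were seen in both. Col9a3, a chain of type IX collagen, was seen in the HES1-labelled sample only (269.7 in the HES1-labelled sample and 25.2 in the GFP-labelled sample). Sox6, a partner of Sox9, was seen in the GFP-labelled sample only (28.1 in the HES1-labelled sample and 57.7 in the GFP-labelled sample). Sox9, the transcription factor that specifies chondrocytes, was at 3227 in the HES1-labelled sample and 3683 in the GFP-labelled sample. Col2a1, the main cartilage collagen, was at 7379 in the HES1-labelled sample and 13796 in the GFP-labelled sample. Acan, which encodes aggrecan, was at 137 in the HES1-labelled sample and 178 in the GFP-labelled sample. The markers Matn1, Matn3, Hapln1 and Snorc were not well above background in either sample. Of 7 osteoblast markers, 6 were seen in each sample, and all 6 were lower in the HES1-labelled sample (median difference -0.90). Each sample showed 3 of 6 endothelial, 2 of 6 adipocyte and 1 of 6 skeletal muscle markers. Of 6 epithelial markers, 3 were seen in the HES1-labelled sample and 2 in the GFP-labelled sample. Of 8 macrophage and leukocyte markers, 4 were seen in the HES1-labelled sample and 3 in the GFP-labelled sample. Among them Itgam was at 22759 in the HES1-labelled sample and 47669 in the GFP-labelled sample, Csf1r and Cd14 differed by 0.04 and -0.12, and Ptprc was seen in the HES1-labelled sample only. In RNA from whole cultures, fewer cells of a type and less RNA per cell cannot be told apart.

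No measured mitochondrial ribosomal protein gene differed by 2-fold between the samples. Of the 78 genes, 76 were measured in both samples, and 0 of these were higher and 0 lower by 2-fold or more in the HES1-labelled sample. Across the 14269 genes measured, 1582 were higher (11.1%) and 707 lower (4.95%) by that measure. The genes of the mitochondrial ribosome had a median difference of -0.04 and an interquartile range of 0.35, against a median of -0.06 and an interquartile range of 0.71 over all genes. Values above 0 were found in 35 of them and values below 0 in 41, against 6422 and 7847 over all genes. The range of the mitochondrial ribosome genes ran between -0.72 for Mrps25 and 0.95 for Mrpl1. The middle of these genes thus lay 0.02 from that of all genes, and their spread was narrower. The genes compared were not matched on signal.

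The count at lower thresholds was also small. At 1.5-fold, 1 gene was higher (17.4% of all genes were) and 2 were lower (14.6% of all genes were), and the other 73 lay within it. A difference of more than 2 technical errors was found upward in 5 genes (19.1% of all genes) and downward in 6 (21.9% of all genes), while 65 lay within that range. Ordered by value, Mrpl1 alone was set apart from its neighbour by more than the technical error, and the other genes formed a continuous run. Neighbouring genes elsewhere in the order cannot be separated at this precision.

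**Figure D1:**
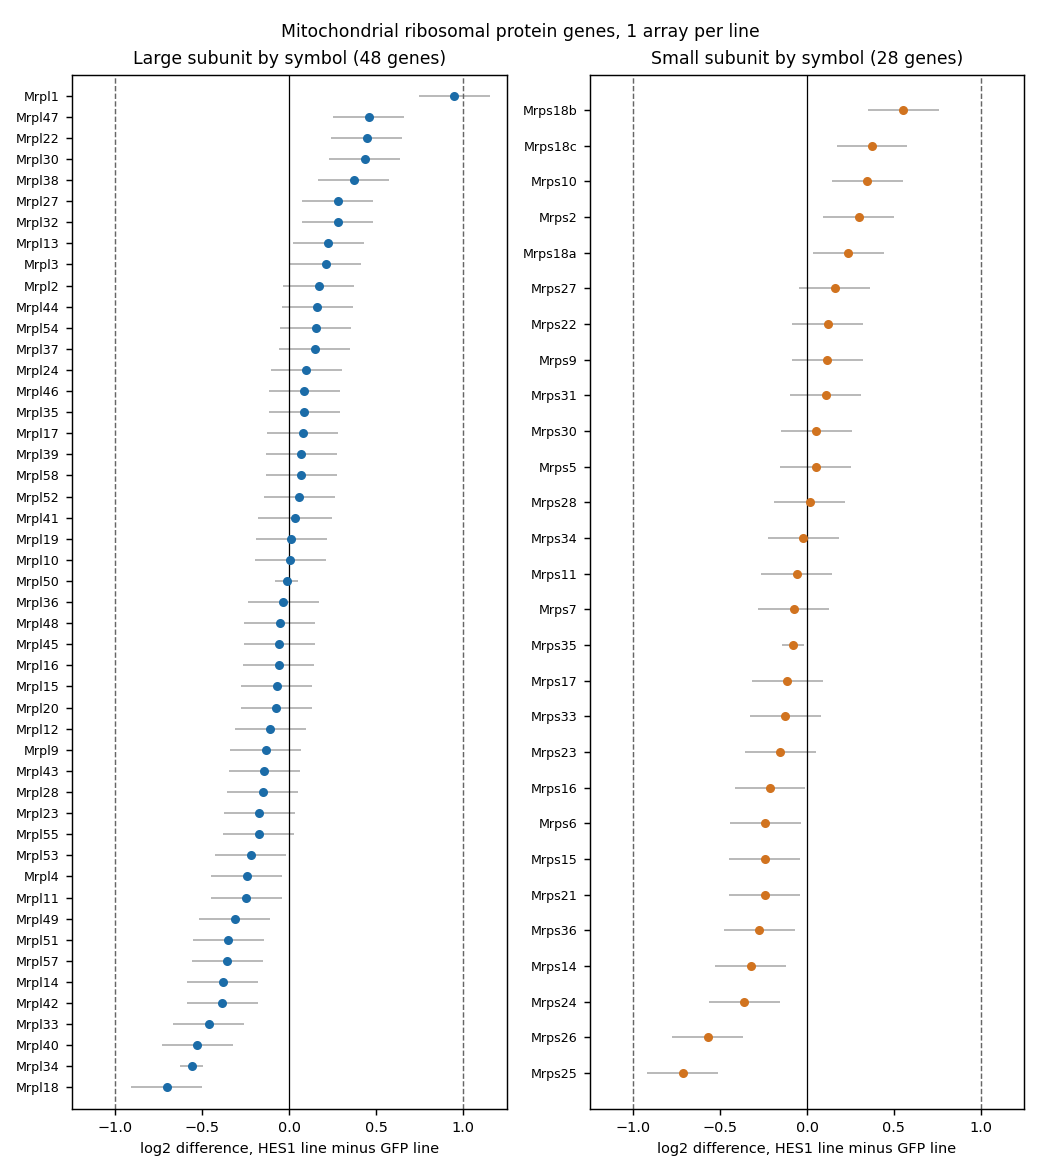
Log2 difference (horizontal axis, HES1 line minus GFP line) of each of the 48 large subunit genes (left) and 28 small subunit genes (right) measured in both samples, 1 array per line. Points are the value of a gene's brightest probe, bars are 1 technical error of the scanner's error model, and dashed lines mark 2-fold; all points lie inside them, with Mrpl1 at 0.95 the closest.

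The gene with the highest difference was Mrpl1, which encodes a protein of the mobile L1 stalk, where spent transfer RNA leaves the large subunit. It was at 2382 in the HES1-labelled sample and 1233 in the GFP-labelled sample. This is 1.93-fold higher, a difference of 0.95 with a technical error of 0.20 from a single spot of a single probe. Its promoter is shown because the gene lay furthest to the high side. It is taken from RefSeq (GRCm38.p6, chr5:96209865-96210164, plus strand), runs 250 bases before to 50 bases after the start, and has capitals where the letters match a site that HES1 is known to bind, the N box CACNAG or the class C site CACGCG, on either strand.
Mrpl1: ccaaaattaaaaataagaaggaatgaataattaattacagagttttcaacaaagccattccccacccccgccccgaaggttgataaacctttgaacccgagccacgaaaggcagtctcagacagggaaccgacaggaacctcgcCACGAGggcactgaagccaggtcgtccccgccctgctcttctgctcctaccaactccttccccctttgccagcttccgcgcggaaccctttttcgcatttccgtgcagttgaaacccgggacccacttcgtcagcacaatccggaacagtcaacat
The window holds 1 N box and 0 class C sites. A match says only that the letters are there.

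Genes of the small subunit were led by Mrps18b, which encodes one of the mammalian relatives of bacterial protein S18. Mrps18b was at 24252 in the HES1-labelled sample and 16538 in the GFP-labelled sample, a difference of 0.55. Its second probe gave 2257 in the HES1-labelled sample and 1449 in the GFP-labelled sample, a difference of 0.64, so both probes were higher by a similar amount. Its relative Mrps18c was at 30086 in the HES1-labelled sample and 23223 in the GFP-labelled sample, a difference of 0.37. The third relative, Mrps18a, whose protein sits in the large subunit despite its symbol, had a difference of 0.24. All 3 thus had positive values. Mrps10 and Mrps2 encode small subunit proteins with bacterial counterparts. Mrps10 was at 11676 in the HES1-labelled sample and 9185 in the GFP-labelled sample (0.35). Mrps2 was at 5012 in the HES1-labelled sample and 4082 in the GFP-labelled sample (0.30), and its second probe gave 0.42.

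In the large subunit, Mrpl47 and Mrpl22 followed Mrpl1. Both encode proteins around the tunnel through which the new chain leaves the ribosome. Mrpl47 was at 7842 in the HES1-labelled sample and 5714 in the GFP-labelled sample, a difference of 0.46, with 0.37 by its second probe. Mrpl22 was at 21609 in the HES1-labelled sample and 15870 in the GFP-labelled sample, a difference of 0.45, with 0.24 by its second probe. Each was higher by both probes. Mrpl30, the counterpart of bacterial L30, was at 25102 in the HES1-labelled sample and 18595 in the GFP-labelled sample (0.43). Mrpl38, found in mitochondria only, was at 3259 in the HES1-labelled sample and 2522 in the GFP-labelled sample (0.37). Mrpl32, whose protein is cut by a protease of the inner membrane before it joins the ribosome, was at 11773 in the HES1-labelled sample and 9713 in the GFP-labelled sample (0.28). After Mrpl1, the large subunit values at the high end thus ran down without a gap.

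At the low end stood Mrps25, a small subunit gene without a bacterial counterpart. Its brighter probe was at 14477 in the HES1-labelled sample and 23783 in the GFP-labelled sample, 1.64-fold lower, a difference of -0.72. Its second probe was at 791 in the HES1-labelled sample and 833 in the GFP-labelled sample, a difference of -0.07. The gap of 0.64 between these probes was the largest of any gene here and the only one over 0.5, so the low value of Mrps25 rests on 1 of its 2 probes. Mrpl18 encodes a protein of the central protuberance, where it binds the structural RNA of the large subunit. It was at 13846 in the HES1-labelled sample and 22574 in the GFP-labelled sample, 1.63-fold lower (-0.71) by its only probe. The promoters of both are shown because these were the 2 genes past 1.5-fold on the low side (RefSeq, GRCm38.p6, minus strand, chr6:92183974-92184273 for Mrps25 and chr17:12916042-12916341 for Mrpl18, capitals as before).
Mrps25: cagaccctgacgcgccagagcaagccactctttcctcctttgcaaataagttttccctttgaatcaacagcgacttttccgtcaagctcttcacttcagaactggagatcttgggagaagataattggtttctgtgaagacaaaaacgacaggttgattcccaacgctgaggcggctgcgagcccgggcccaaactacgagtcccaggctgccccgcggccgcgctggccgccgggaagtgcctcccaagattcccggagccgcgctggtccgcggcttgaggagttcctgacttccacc
Mrpl18: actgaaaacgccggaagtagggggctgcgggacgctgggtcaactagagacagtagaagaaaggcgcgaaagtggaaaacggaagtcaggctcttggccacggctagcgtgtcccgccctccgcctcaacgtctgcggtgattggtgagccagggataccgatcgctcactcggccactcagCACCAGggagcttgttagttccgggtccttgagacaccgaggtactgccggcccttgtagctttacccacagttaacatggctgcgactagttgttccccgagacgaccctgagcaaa
The Mrps25 window holds neither site, and the Mrpl18 window holds 1 N box, as did that of Mrpl1 at the high end.

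Further low values came from Mrps26, Mrpl34 and Mrpl40. Mrps26, of the small subunit and mitochondria only, was at 24580 in the HES1-labelled sample and 36510 in the GFP-labelled sample (-0.57), with -0.39 by its second probe. Mrpl40, of the large subunit and mitochondria only, was at 6175 in the HES1-labelled sample and 8906 in the GFP-labelled sample (-0.53), with -0.51 by its second probe. Both were lower by each probe. Mrpl34, the counterpart of bacterial L34, was printed in 10 spots per array and so is the best measured of the low genes. Its spots ran between 6797 and 7319 with a median of 7126 in the HES1-labelled sample, and between 9982 and 10852 with a median of 10514 in the GFP-labelled sample. The spots of the 2 arrays did not overlap, and the difference of -0.56 had a technical error of 0.06 and an SD between spots of 0.06. Spots of an array share its RNA and are not replicates of the line.

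The remaining low genes differed less. Mrpl33 was at 86892 in the HES1-labelled sample and 119842 in the GFP-labelled sample (-0.46), and Mrpl14, whose protein lies where the subunits meet, at 47905 in the HES1-labelled sample and 62448 in the GFP-labelled sample (-0.38). Mrpl42 was at 5769 in the HES1-labelled sample and 7533 in the GFP-labelled sample (-0.39). Mrps24, the counterpart of bacterial S3, was at 7979 in the HES1-labelled sample and 10248 in the GFP-labelled sample (-0.36), and Mrpl57 at 13190 in the HES1-labelled sample and 16906 in the GFP-labelled sample (-0.36). Of these 5, Mrpl33 alone was further than 2 technical errors below 0. The other genes printed in 10 spots gave overlapping values. Mrpl50 had spots of 7123 to 7939 in the HES1-labelled sample and 7247 to 8206 in the GFP-labelled sample (-0.02), and Mrps35 had spots of 4934 to 5250 in the HES1-labelled sample and 4907 to 5810 in the GFP-labelled sample (-0.08).

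Other members picked for what their proteins do were Mrpl12, Mrpl58 and Mrps12. Mrpl12 encodes the stalk protein that recruits translation factors, and it has also been reported to bind the mitochondrial RNA polymerase. It was at 31176 in the HES1-labelled sample and 33613 in the GFP-labelled sample (-0.11). Mrpl58 encodes a peptidyl-tRNA hydrolase built into the ribosome that frees stalled chains, and was at 23243 in the HES1-labelled sample and 22174 in the GFP-labelled sample (0.07). For both genes the difference was smaller than the technical error. Mrps12, whose protein helps to check the decoding of each codon, had a single spot with an outlier flag and was left out. Its values were 7230 in the HES1-labelled sample and 7985 in the GFP-labelled sample, which would give -0.14. Mrpl21 was not well above background in either sample (19.5 in the HES1-labelled sample and 12.2 in the GFP-labelled sample), so no fold is given.

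Repeat probes bore on the reliability of single genes. For 21 genes 2 probes were measured, and both had the same sign for 18 of them, with a median gap of 0.10. Mrpl10, Mrpl15 and Mrps14 had probes of opposite sign. Those of Mrpl10 lay within 0.01 of 0, and those of Mrps14 were at -0.32 and 0.05. Mrpl41 was read by its dimmer probe (279 in the HES1-labelled sample and 273 in the GFP-labelled sample, 0.03), because the spot of its brighter probe had an outlier flag. That spot gave 12890 in the HES1-labelled sample and 17444 in the GFP-labelled sample, a difference of -0.44.

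**Figure D2:**
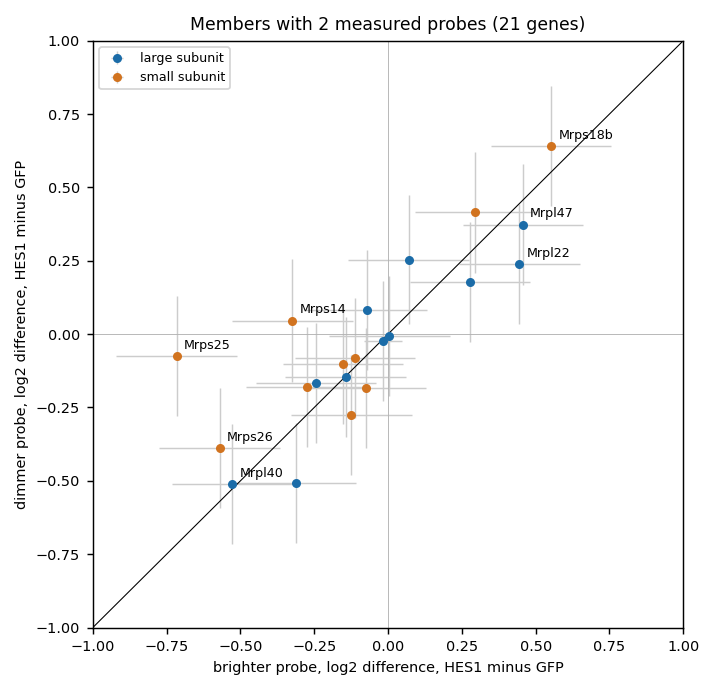
Log2 differences (HES1 minus GFP) of the 21 genes with 2 measured probes, the brighter probe on the horizontal axis and the dimmer on the vertical, with bars of 1 technical error and the line of equality. Mrps18b and Mrpl47 lie high and Mrpl40 and Mrps26 lie low by both probes, while Mrps25 is at -0.72 by one and -0.07 by the other.

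The values of both subunits overlapped over most of their range. The large subunit had a median difference of -0.02 over 48 genes, with 23 above 0 and 25 below, and the small subunit a median of -0.07 over 28 genes, with 12 above 0 and 16 below. The medians differed by 0.04, large minus small, and by 0.07 when genes were placed by the structure of the mammalian ribosome, which moves Mrps18a and Mrps30 to the large subunit and leaves out Mrps36, now known as a subunit of the 2-oxoglutarate dehydrogenase complex. At 1.5-fold each subunit had 1 lower gene, and the 1 higher gene was of the large subunit. The 43 genes with a bacterial counterpart had a median of -0.06 and the 32 found in mitochondria only a median of -0.02. The range was -0.71 to 0.95 in those with a bacterial counterpart and -0.72 to 0.55 in those found in mitochondria only.

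Proteins of the mitochondrial ribosome with other names gave a like picture, with 0 of 5 past 2-fold and a median of -0.07. The lowest was Dap3, a GTP-binding protein of the small subunit, at 24778 in the HES1-labelled sample and 38034 in the GFP-labelled sample (-0.62, 1.54-fold lower). Gadd45gip1, at 9378 in the HES1-labelled sample and 9029 in the GFP-labelled sample, was the highest of them (0.05). Ribosome assembly and rRNA processing factors had 0 of 30 past 2-fold and a median of -0.05. Their extremes were Trub2, a pseudouridine synthase, at 67381 in the HES1-labelled sample and 43737 in the GFP-labelled sample (0.62), and Trmt2b, a methyltransferase, at 3146 in the HES1-labelled sample and 5202 in the GFP-labelled sample (-0.73).

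Factors that serve the ribosome showed 1 gene past 2-fold. Pnpt1 encodes polynucleotide phosphorylase, which degrades RNA and double-stranded RNA in mitochondria and is known in human cells as an interferon-induced gene. It was at 25683 in the HES1-labelled sample and 5035 in the GFP-labelled sample, 5.10-fold higher (2.35). All 15 measured genes of an interferon-stimulated list were also higher by 2-fold or more, with a median of 7.91. Its part in the value of Pnpt1 was not tested. The other 23 genes in the list of translation and related factors stayed within 2-fold, and that list's median was 0.0029. The elongation factor Tufm was at 7880 in the HES1-labelled sample and 9790 in the GFP-labelled sample (-0.31), and the initiation factor Mtif2 at 78593 in the HES1-labelled sample and 92025 in the GFP-labelled sample (-0.23). Gfm1, the factor that moves the ribosome along, had a difference of 0.05.

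Among 16 mitochondrial aminoacyl-tRNA synthetases, 0 passed 2-fold and the median was -0.08. Yars2, for tyrosine, was the highest at 3951 in the HES1-labelled sample and 3242 in the GFP-labelled sample (0.29). Genes of mitochondrial DNA maintenance and transcription also had 0 of 14 past 2-fold, with a median of -0.05. Polg, the catalytic subunit of the mitochondrial DNA polymerase, was at 2667 in the HES1-labelled sample and 5190 in the GFP-labelled sample, 1.95-fold lower (-0.96). Tefm, an elongation factor of mitochondrial transcription, was at 719 in the HES1-labelled sample and 406 in the GFP-labelled sample, 1.77-fold higher (0.82). These 2 genes stood at opposite ends of a list whose middle lay near 0.

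Nuclear regulators of mitochondrial genes had 2 of 12 past 2-fold, both higher, where 11.1% of all genes were higher. Both were dim, were seen in the HES1-labelled sample only, and drop out where both arrays must see a gene. Ppargc1a, the coactivator best known for driving mitochondrial biogenesis, was at 98.1 in the HES1-labelled sample and not well above background in the GFP-labelled sample, at least 2.57-fold higher. Perm1, a regulator described in muscle, was at 183 in the HES1-labelled sample and 36.8 in the GFP-labelled sample, at least 4.81-fold higher. A bound sets the bright signal against the lowest signal well above background on the other array (38.1 for GFP). The other 10 regulators stayed within 2-fold, among them factors whose promoter sites are counted below. Nrf1 was at 1847 in the HES1-labelled sample and 2583 in the GFP-labelled sample (-0.48), Gabpa had a difference of -0.16, Yy1 of -0.14 and Esrra of -0.30. Myc was at 16979 in the HES1-labelled sample and 8859 in the GFP-labelled sample (0.94).

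Lists downstream of mitochondrial translation and outside it were set beside these. Values below 0 were found in 71 of 78 nuclear genes for oxidative phosphorylation subunits, against 7847 of 14269 over all genes. The median of the oxidative phosphorylation genes was -0.30 and stayed below 0 under all alternatives tried (-0.31 to -0.11). The value of -0.11 came after a loess fit. Beyond 2 technical errors, 22 of the 78 were lower (21.9% of all genes were) and 1 was higher (19.1% of all genes were). The 1 gene past 2-fold was Cox6a2, the heart and muscle isoform of a cytochrome oxidase subunit, at 235 in the HES1-labelled sample and 90.6 in the GFP-labelled sample (2.59-fold higher). Ndufa4 was the lowest, at 28702 in the HES1-labelled sample and 55672 in the GFP-labelled sample (-0.96). Cytosolic ribosomal proteins had 80 of 82 genes below 0 and a median of -0.20 with an SD of 0.12 between genes, but this median turned to 0.0076 after a loess fit. The SD between the genes of the mitochondrial ribosome was 0.29. Import genes had a median of 0.03 over 23 genes, and chaperones and proteases a median of 0.0037 over 14 with 0 past 2-fold. Among the chaperones, Hspa9, the mitochondrial HSP70, was at 31428 in the HES1-labelled sample and 18245 in the GFP-labelled sample (0.78), while Hspd1 was at 66626 in the HES1-labelled sample and 84797 in the GFP-labelled sample (-0.35). In the import list Tomm20l was seen in the GFP-labelled sample only, at 7.90 in the HES1-labelled sample and 43.9 in the GFP-labelled sample, at least 1.13-fold lower.

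**Figure D3:**
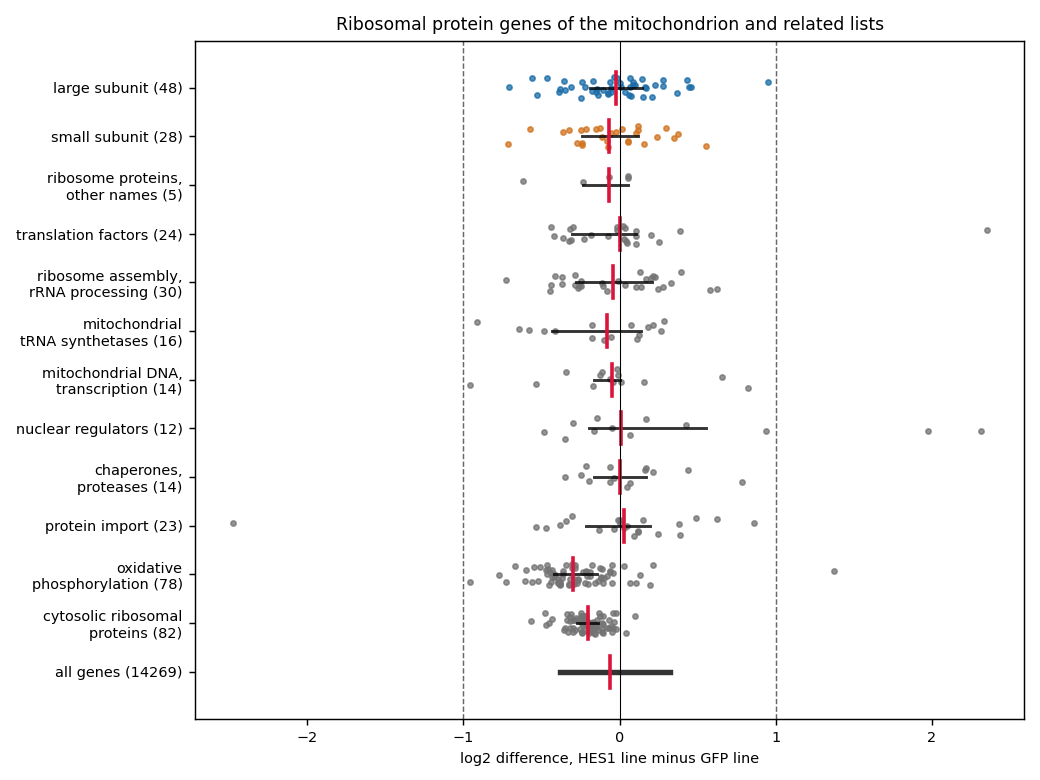
Log2 difference (horizontal axis, HES1 minus GFP) of each gene of the mitochondrial ribosome by subunit and of related lists, with the number measured in brackets. Red ticks are medians, dark bars run between the quartiles, dashed lines mark 2-fold, and for all genes only median and quartiles are drawn. Both subunits centre near 0 like all genes, and oxidative phosphorylation genes centre at -0.30. Genes seen in 1 sample only (Perm1, Ppargc1a, Tomm20l) are plotted at their measured difference.

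The scale between arrays moved the level of these medians, though not all by the same amount. A loess fit, which takes out any trend with signal, set the median of all genes to 0.08, and that of the mitochondrial ribosome genes to 0.12, with 0.13 for the large and 0.09 for the small subunit. Quantile normalization moved the median of cytosolic ribosomal proteins to -0.05, and left that of the mitochondrial ribosome genes at -0.03 and that of oxidative phosphorylation genes at -0.27. Relative to all genes the ribosomal genes stayed between -0.04 and 0.05 under all alternatives. The large minus small difference stayed between 0.02 and 0.07. Across the 76 genes, the difference correlated weakly with the mean log2 signal (Pearson r = -0.28, Spearman rho = -0.25), all from the same 2 arrays. After loess Mrpl1 was at 1.09 and so became the 1 gene past 2-fold.

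**Figure D4:**
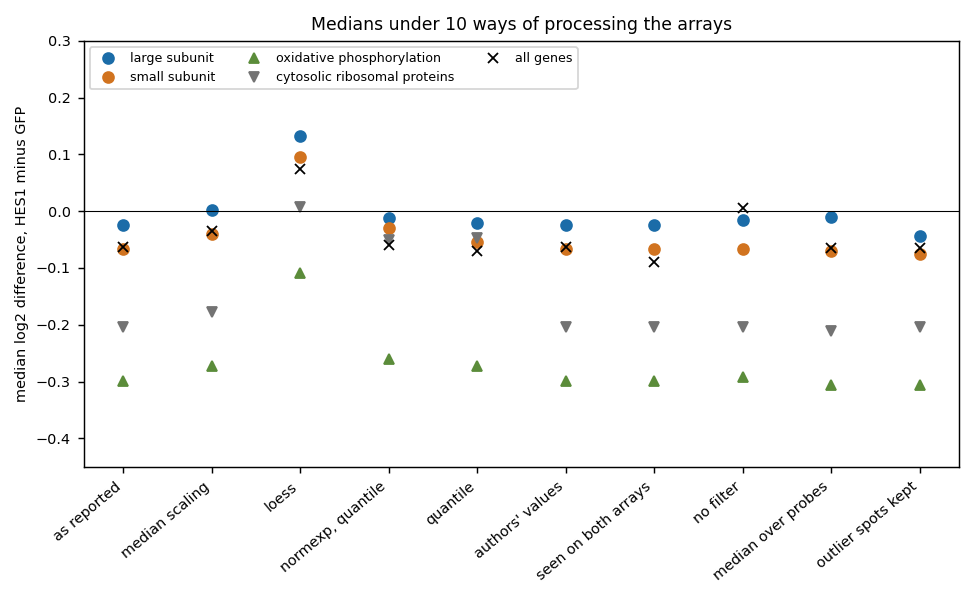
Median log2 difference (vertical axis, HES1 minus GFP) of both subunits, 2 comparison lists and all genes under 10 ways of processing the arrays (horizontal axis). The subunit medians lie within 0.1 of that of all genes in each column, and oxidative phosphorylation genes lie lowest in each.

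Many of these genes share their upstream region with a gene read in the other direction. A gene started within 1000 bases on the other strand for 27 of them, in 26 pairs, and both partners were measured in 22 pairs. The signs were the same in 15 pairs and opposite in 7 (Pearson r = 0.40 and Spearman rho = 0.37 over 22 pairs, on shared arrays). In 4 of the 22 pairs the partner was past 2-fold, 2 higher and 2 lower, and no ribosomal gene was. That count of partners is near the share over all measured genes, of which 11.1% were higher and 4.95% lower. Mitd1, known in human cells for the final step of cell division, starts 66 bases from Mrpl30 and was at 12741 in the HES1-labelled sample and 1945 in the GFP-labelled sample, 6.55-fold higher (2.71), against 0.43 for Mrpl30. Pnpla7, a lysophospholipase that starts 935 bases from Mrpl41, was at 6718 in the HES1-labelled sample and 1127 in the GFP-labelled sample. Pnpla7 was 5.96-fold higher (2.58), against 0.03 for Mrpl41 by its dimmer probe. The flagged spot of the brighter Mrpl41 probe gave -0.44, by which the signs of this pair would be opposite. The partners on the low side act on chromosomes in mitosis. Ncapd2, a condensin subunit that starts 614 bases from Mrpl51, was at 9147 in the HES1-labelled sample and 27335 in the GFP-labelled sample, 2.99-fold lower (-1.58), against -0.35. Ska3, of the kinetochore, starts 76 bases from Mrpl57 and was at 306 in the HES1-labelled sample and 653 in the GFP-labelled sample, 2.14-fold lower (-1.09), against -0.36. Of 21 measured S and M phase genes, 13 were at least 2-fold lower, and their part in these 2 values was not tested. Ska3 fell short of 2-fold after loess (-0.95) and with normexp (-0.97).

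The Mrpl30 window, which also covers the start of Mitd1, is shown because Mitd1 had the highest value of any partner. It comes from RefSeq (GRCm38.p6, chr1:37890227-37890526, read on the plus strand of Mrpl30), with capitals as before.
Mrpl30: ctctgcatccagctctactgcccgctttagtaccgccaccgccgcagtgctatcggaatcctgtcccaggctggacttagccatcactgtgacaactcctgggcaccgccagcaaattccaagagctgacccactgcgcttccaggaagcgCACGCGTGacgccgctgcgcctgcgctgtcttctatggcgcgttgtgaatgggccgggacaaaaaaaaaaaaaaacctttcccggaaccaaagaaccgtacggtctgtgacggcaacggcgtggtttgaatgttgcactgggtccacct
The capitals are 2 overlapping class C matches, one on each strand. They lie past the start of Mitd1, within that gene, and the window holds no N box.
Other partners of named genes lay closer to 0. Tcp1, a chaperonin subunit beside Mrpl18, was at -0.22, Ndufb5 beside Mrpl47 at -0.29, Hira beside Mrpl40 at -0.47, Helq beside Mrps18c at 0.74, Psma2 beside Mrpl32 at 0.07 and Tmem63b beside Mrpl14 at 0.06. Sars2, beside Mrps12, was at 0.12. The partners of Mrps18b and Mrps26 (Ppp1r10 and 4930473A02Rik) were not measured. Mrpl46 and Mrps11 start 42 bases apart and form a pair within the set, with differences of 0.09 and -0.06.

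**Figure D5:**
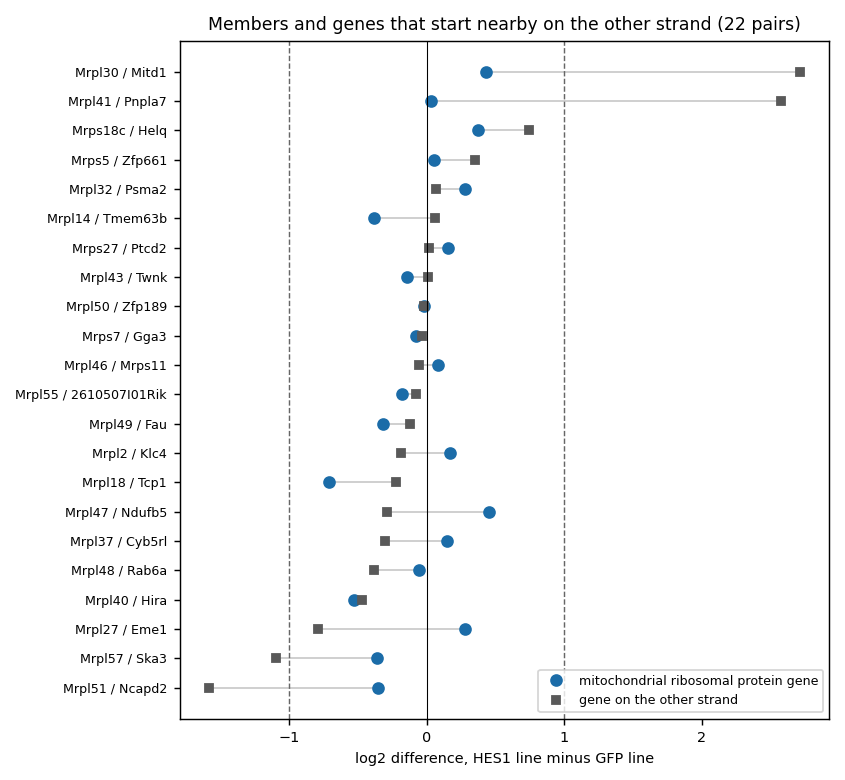
Log2 differences (horizontal axis, HES1 minus GFP) of the 22 genes of the mitochondrial ribosome (circles) and of the gene that starts nearby on the other strand (squares), joined by a line and sorted by the partner. Dashed lines mark 2-fold. Mitd1, Pnpla7, Ncapd2 and Ska3 lie outside them and no circle does.

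Sequence features were counted in the promoters of 69 of the genes, which have 75 windows of this length in the RefSeq table. Matches were counted on both strands. The ETS site CCGGAAG, bound by GABP, was in 34.7% of their windows, against 15.3% of windows of measured genes and 8.86% of all windows. The NRF1 core GCATGCGC was in 10.7%, against 4.61% and 2.71%, and the YY1 site AAGATGGC in 16.0%, against 3.94% and 2.75%. For sites of HES1 the shares lay close to those in windows of measured genes. The class C site CACGCG was in 17.3% of their windows, against 15.7% of windows of measured genes and 9.27% of all windows, and the N box CACNAG in 41.3%, against 40.7% and 42.5%. The E-box CACGTG was in 9.33%, against 9.39% and 7.15%. Median GC content was 58.7% in their windows, 59.7% in those of measured genes and 52.7% in all.

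Differences of genes with and without a site that HES1 and related factors bind were set side by side, with no test. The 13 genes with a class C site had a median difference of 0.06 (range -0.38 to 0.43) and the 54 without one a median of -0.08 (-0.72 to 0.95). The 29 genes with an N box had a median of -0.06 (-0.71 to 0.95) and the 38 without one a median of -0.02 (-0.72 to 0.43). The 5 genes with an E-box had a median of 0.15 (-0.08 to 0.37) and the 62 without one a median of -0.06 (-0.72 to 0.95). The ranges overlapped for each site. Mrps18b is shown as an example with 2 NRF1 cores and 1 ETS site beside its N box, the N box alone in capitals (RefSeq, GRCm38.p6, chr17:35916391-35916690, minus strand).
Mrps18b: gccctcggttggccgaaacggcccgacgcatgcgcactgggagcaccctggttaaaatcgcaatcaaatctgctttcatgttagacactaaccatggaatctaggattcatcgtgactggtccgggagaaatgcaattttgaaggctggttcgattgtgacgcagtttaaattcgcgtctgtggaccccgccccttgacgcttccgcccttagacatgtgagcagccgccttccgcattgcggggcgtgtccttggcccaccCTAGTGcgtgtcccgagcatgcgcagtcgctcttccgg
The 8 genes with an NRF1 core had a median of 0.07 and ranged between -0.46 for the lowest and 0.55 for Mrps18b, the highest. The 59 without one had a median of -0.06 (-0.72 to 0.95). For the ETS site, 24 genes with it had a median of -0.09 (-0.71 to 0.55). The 43 without it had a median of -0.06 (-0.72 to 0.95). For the YY1 site, 11 genes with it had a median of -0.03 (-0.39 to 0.28). The 56 without it had a median of -0.06 (-0.72 to 0.95).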

How the data were processed

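Expression was measured on 2 Agilent 1-colour arrays of one mouse design, annotated on mm9 per the file headers, 1 for the HES1 line and 1 for the GFP line. The image software was Agilent Feature Extraction 10.10.1.1, per the submitters' processing notes. The deposited scanner files hold an intensity per spot, background-corrected and detrended by that software but not scaled between arrays, per the file headers. The authors' deposited value table was the same intensity times 1.53 for HES1 and 1.45 for GFP, which gives medians of 76.6 and 67.7 and the scaling used here, so its scale and direction are known, and it is not centred. With so few arrays, their number limits precision.

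Processed signals of the 59305 non-control spots were divided by the array's own 75th percentile and put on the log2 scale. Spots with an outlier flag (1053) were left out, none was saturated, and spots of a probe were averaged. Accessions were named through RefSeq (GRCm38.p6), giving 26863 named probes of 54948. A gene took its brightest probe well above background on at least 1 array. A probe was well above background where most of its spots carried that scanner flag. Python 3.11.15, pandas 2.3.3, R 4.3.3 and limma 3.58.1 were used.

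No test was run, since each group has 1 array, and a gene was counted at 2-fold. The counting was checked on simulated data. The genes, lists and rule for names were chosen with earlier results of these data known. Named were Hes1, the 10 highest and 10 lowest members, Mrpl12, Mrps12 and Mrpl58, members not measured or with probes over 0.5 apart, neighbours of named members, up to 4 genes per list past 2-fold or the extreme each way, Sox9, Col2a1 and Acan. One gene that this rule names is not reported here. Others were named after their values were seen. These are Tufm, Mtif2, Gfm1, Nrf1, Gabpa, Yy1, Esrra, Myc, Ndufa4, Mrps18a, Mrps30, Mrps36, Mrpl50 and Mrps35. They also include genes with probes of opposite sign, partners past 2-fold, and the pair Mrpl46 and Mrps11. Also among them are the unseen markers, Col9a3, Sox6, Itgam, Csf1r, Cd14, Ptprc and the ATF4 list genes within 2-fold.

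The alternatives tried were loess (span 0.3), quantile normalization, the median of shared probes as the scale, normexp (offset 50) on median spot signals, the authors' values, other filters on dim probes, a median over probes, keeping outlier spots, dropping saturated ones, bounds, folds of 1.5 and 3, subunits by structure, and members that share a name with a pseudogene left out.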

Additional observations from a re-analysis of the deposited data

How the results depend on the processing

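The count of 0 members past 2-fold in either direction held under the alternatives tried, except loess, where 1 was higher (Mrpl1), and the 1.5-fold threshold, with 1 higher and 2 lower. Loess also moved the members' median to 0.12. Members minus all genes ranged between -0.04 and 0.05, large minus small between 0.02 and 0.07, and bacterial minus mitochondria-only between -0.04 and -0.01. All 20 members named for their rank kept their sign under every alternative. Of 242 recomputed values of named members, 2 moved by more than the technical error: Mrps25, at -0.40 by the median over its probes, and Mrpl34, at -0.41 after loess. Many of these values could hardly move. The authors' values, the filters on dim probes, the bounds, keeping outlier spots and dropping saturated ones left them the same to within rounding. The 20 members were also picked for lying furthest from 0, so their kept signs say little. Mrpl12 ranged between -0.15 and 0.07. The counts over all genes were 850 higher and 339 lower with normexp, 920 higher where both arrays had to see the gene, 2479 and 2084 at 1.5-fold and 997 and 178 at 3-fold. Genes of the other mitochondrial lists past 2-fold, 4 higher and 1 lower, became 1 and 0 with normexp, 2 and 0 where both arrays had to see them, 4 and 0 by bounds, and 11 and 12 at 1.5-fold. Divergent partners past 2-fold were 4, and 3 after loess and with normexp, where Ska3 fell short. They were 6 at 1.5-fold and 2 at 3-fold. The cause of these shifts was not tested, apart from thresholds and filters, which change the counts by construction. No paired analysis was possible because each group has 1 array, and for the same reason no array could be left out. Signal over background limits Mrpl21, for which no fold can be given.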

Other observations

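Large subunit proteins were also grouped by their place in the ribosome, a grouping made after the values were seen. The 5 genes of the stalk that recruits translation factors and of its base (Mrpl10, Mrpl11, Mrpl12, Mrpl53 and Mrpl54) had a median log2 difference, HES1 minus GFP, of -0.11 and ranged between -0.25 and 0.15. The 6 genes around the exit tunnel (Mrpl17, Mrpl22, Mrpl23, Mrpl24, Mrpl45 and Mrpl47) had a median of 0.09 and ranged between -0.17 and 0.46. The 6 genes of the central protuberance (Mrpl18, Mrpl38, Mrpl40, Mrpl46, Mrpl48 and Mrpl58) had a median of 0.01 and spread the widest, between -0.71 for Mrpl18 and 0.37 for Mrpl38. The ranges of the 3 groups overlapped, and no difference between them was tested. A list of ATF4 target genes, which respond to stress, had 6 of 11 measured genes higher by 2-fold or more in the HES1-labelled sample. The list's median was 1.06, and 11.1% of all genes were higher by that measure. The 5 within 2-fold were Asns (0.96), Mthfd2 (0.72), Phgdh (0.56), Atf4 (0.55) and Psat1 (0.14). In that list Ddit3 was at 21785 in the HES1-labelled sample and 1737 in the GFP-labelled sample, and Trib3 at 27954 in the HES1-labelled sample and 4465 in the GFP-labelled sample.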
